A study of Homo sapiens with 9 samples.

Results

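The genes described here write, maintain, oxidise or remove DNA methylation, or make the metabolite that its oxidation needs: TET1, TET2, TET3, TDG, DNMT1, UHRF1, DNMT3A, DNMT3B, IDH1 and IDH2. They were chosen by symbol and are 10 of the 25680 gene symbols in the deposited tables. Each was represented by its RefSeq row with the highest total over the 9 samples. Messenger RNA was sequenced from SKNO-1, a line of human acute myeloid leukaemia (AML) cells with the AML1-ETO (RUNX1-RUNX1T1) fusion, grown with GM-CSF per the study's methods. All 9 samples share this fusion and fall into 3 groups of 3. EV is the control group, an abbreviation the labels leave unexplained (the study describes a control shRNA). SH2 and SH3 each carry a different shRNA against ASXL2, a protein of the Polycomb and Trithorax systems, so the groups address which transcripts differ when ASXL2 is depleted next to AML1-ETO. Within each group the samples are numbered 1, 13 and 25, and the labels do not say what the numbers mean. The study describes the samples of a group as biological replicates, while the labels do not say whether they came from separate cultures of this 1 cell line, so the p values below measure the spread between these samples, which may be partly technical.

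As background, DNMT3A and DNMT3B place methyl groups on cytosines of unmethylated CpG sites, while DNMT1 copies an existing pattern onto the new strand after replication and UHRF1 guides it to hemimethylated sites. The TET enzymes oxidise methylcytosine, TDG cuts out the most oxidised forms, and base excision repair puts a plain cytosine back. TET enzymes consume 2-oxoglutarate, which IDH1 makes in the cytosol and IDH2 in mitochondria, and TET2, DNMT3A, IDH1 and IDH2 are among the genes recurrently mutated in myeloid leukaemia.

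With 1 row per gene the samples held 27714431 to 35406063 counts, and all 10 members were among the 14199 genes that passed the filter on low counts. ASXL2 itself stood at 67.88, 67.93 and 74.73 CPM (the gene's count scaled to the size of its library) in the EV samples numbered 1, 13 and 25, at 30.4, 36.2 and 36.22 CPM in SH2, and at 26.93, 29.06 and 41.14 CPM in SH3. The shRNA samples therefore kept between 39.7% and 55.05% of the ASXL2 level of the EV sample with their number. Without a term for the numbers, edgeR called 0 of the 14199 genes at an adjusted p under 0.05 in any contrast of the groups, ASXL2 included (adjusted p = 0.177 for both shRNAs averaged). At an unadjusted p under 0.05 it called 762 genes for SH2, 723 for SH3, 942 for both averaged and 293 between the shRNAs, and DESeq2 called 21, 26, 52 and 11 genes at an adjusted p under 0.05. With the number as a block, edgeR called 40, 59, 156 and 15 genes, and ASXL2 had an adjusted p of 0.00098 for both shRNAs averaged. The AML blast markers MPO, KIT, RUNX1, RUNX1T1, CD33 and CD34 summed to 7110 to 11100 CPM per sample, most of it MPO at 6370 to 10200 CPM. KIT, RUNX1, RUNX1T1 and CD33 lay between 88.2 and 419 CPM, and CD34 had only 40 counts in all. Markers of T cells (CD3E and CD3G at 0 throughout), erythroid cells (HBB at 0 throughout) and epithelial cells each summed to at most 0.173 CPM.

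Levels were compared between genes as CPM per kb of the canonical transcript (GENCODE, GRCh37). The counts are of RefSeq rows, whose own lengths may differ and were not used. The order of the genes therefore depends on the canonical lengths. In EV, IDH2 was highest at 114.5 ± 8.4 CPM per kb (SD, n = 3), followed by DNMT1 at 60.25 ± 5.5 and IDH1 at 30.7 ± 2.7. TDG at 15.4 ± 2.2 CPM per kb and UHRF1 at 14.9 ± 2.1 came next, and their 3 EV values overlapped. TET3 at 11.3 ± 0.64 and TET2 at 9.39 ± 1.2 CPM per kb overlapped as well, ahead of DNMT3A at 6.89 ± 0.94. The lowest were TET1 at 3.59 ± 0.99 and DNMT3B at 1.57 ± 0.12 CPM per kb. The EV ranges of all other neighbours in this order were separate. The same order held for the group means in SH2 and SH3. DNMT3B, with 1696 counts over the 9 samples, was thus the member measured with the fewest reads, and IDH2, with 89892, the one with the most.

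**Figure D1:**
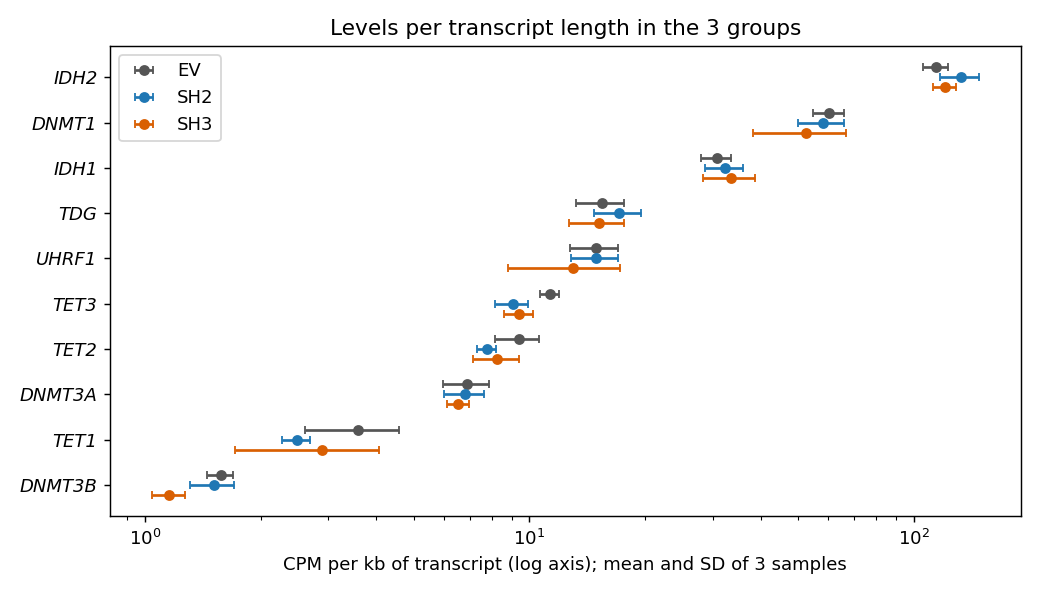
CPM per kb of transcript on a log axis for each gene (rows), as the mean and SD of 3 samples for EV, SH2 and SH3. IDH2 lies near 114.5 and DNMT3B near 1.57 CPM per kb in EV. Within each row the 3 groups lie close together relative to this full range, but not relative to the spacing of neighbours such as TDG and UHRF1 or TET3 and TET2.

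The TET genes encode the dioxygenases that begin demethylation. TET3 (NM_001287491, chromosome 2, 74212037 to 74335303, plus strand, GRCh37) had 142.5, 138.4 and 127.6 CPM in the EV samples numbered 1, 13 and 25, 101.1, 121.3 and 105.2 CPM in SH2, and 106.8, 109.0 and 124.9 CPM in SH3. All 6 shRNA samples lay below all 3 EV samples, the smallest gap being that between SH3 and EV at number 25. TET3 was the only member of which this held, and 2.61% of all genes tested did the same. Against the EV sample of the same number, TET3 stood at 80.35% ± 8.6 in SH2 and 83.9% ± 12 in SH3 (SD, n = 3).

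TET2 (NM_001127208, chromosome 4, 106067032 to 106200973, plus strand), an AML tumour suppressor, had 103.6, 83.27 and 83.23 CPM in EV, 76.98, 76.78 and 69.49 CPM in SH2, and 88.19, 67.44 and 82.06 CPM in SH3. Every SH2 sample lay below every EV sample, whereas the SH3 sample numbered 1 lay above the EV samples numbered 13 and 25. TET1 (NM_030625, chromosome 10, 70320094 to 70454244, plus strand), first known from a translocation with MLL in AML, had 45.43, 27.89 and 30.24 CPM in EV, 26.15, 23.1 and 22.35 CPM in SH2, and 40.42, 18.4 and 24.57 CPM in SH3. Again SH2 did not overlap EV, and in SH3 only the sample numbered 1 did. TET1, TET2 and TET3 were the 3 members with all 3 SH2 samples below all 3 EV samples, which 7.8% of the genes tested showed. Compared by number, TET1, TET2 and TET3 were each below their EV sample in 6 of 6 pairs, as were 11.6% of the genes tested. The smallest deficits were in the SH3 samples numbered 25, at 98.6% of EV for TET2 and 97.9% for TET3.

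Summed per kb, the TET genes held 24.27 ± 2.7 CPM per kb in EV, 19.3 ± 1.1 in SH2 and 20.57 ± 2.3 in SH3 (SD, n = 3). Of this sum TET3 supplied 39.8% to 50.3% over the 9 samples, TET2 37.7% to 42.0% and TET1 10.6% to 18.9%.

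In edgeR without the block, 0 of the 10 members passed an adjusted p of 0.05 against EV or between the shRNAs, where 0% of all genes did. DESeq2 without the block called none of them either, beside 0.148% of all genes for SH2, 0.183% for SH3, 0.366% for both averaged and 0.0775% between the shRNAs. At an unadjusted p under 0.05, edgeR without the block called TET3 for SH2 (1 member, 5.37% of all genes), TET3 and DNMT3B for SH3 (2 members, 5.09%), TET3 for both averaged (1 member, 6.63%) and DNMT3B between the shRNAs (1 member, 2.06%).

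Averaged over both shRNAs, the log2 fold changes without the block were -0.29 ± 0.09 (SE) for TET3 (edgeR, adjusted p = 0.623), -0.23 ± 0.11 for TET2 (adjusted p = 0.785) and -0.42 ± 0.24 for TET1 (adjusted p = 0.837). With the block, 0 of the 10 members passed, against 0.282% of the genes for SH2, 0.416% for SH3 and 1.1% for both averaged. At an unadjusted p under 0.05 it called 4 members in each of these contrasts, beside 18.7% of all genes for SH2, 18.7% for SH3 and 20.4% for both averaged. There the same differences had smaller errors, with edgeR's adjusted p = 0.0859 for TET3 (-0.29 ± 0.08), 0.0968 for TET1 (-0.42 ± 0.12) and 0.137 for TET2 (-0.23 ± 0.08).

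The calls for the TET genes turned on the tool and on which samples entered the fit. DESeq2 with the block called TET1 (adjusted p = 0.0275) and TET3 (adjusted p = 0.0235) for both shRNAs averaged, where it called 4.12% of all genes. For SH2 it called the same genes, TET1 (adjusted p = 0.032) and TET3 (adjusted p = 0.0469), beside 2.35% of all genes, and it called no member for SH3 (2.9%) or between the shRNAs (0.986%). That fit also called MKI67, a marker of cycling cells, as lower for both averaged (adjusted p = 0.00139), while the sum of the 7 proliferation markers overlapped between EV (1830 to 2030 CPM), SH2 (1760 to 2040) and SH3 (1490 to 1990), and the part of proliferation in the TET calls was not tested. Without the SH3 sample numbered 1, edgeR with the block called TET1 (adjusted p = 0.00637), TET3 (adjusted p = 0.0273) and TET2 (adjusted p = 0.0476) for both shRNAs averaged, where it called 12.3% of all genes. For SH2 that fit called TET1 (adjusted p = 0.0106), TET3 (adjusted p = 0.023) and TET2 (adjusted p = 0.0429), beside 11.2% of all genes. The same fit called TET1 for SH3 (adjusted p = 0.0367, 2.58% of all genes). Without the SH3 sample numbered 13 instead, edgeR with the block called TET1 for SH2 (-0.51, adjusted p = 0.0497), where it called 1.85% of all genes, and no other member there or in the other contrasts. Without all samples numbered 1, edgeR with the block called TET1 for SH3 (adjusted p = 0.0335, 2.42% of all genes) and for both averaged (adjusted p = 0.026, 2.63%).

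The transcripts of TET1, TET2 and TET3 are also long, exceeding those of 95.8%, 95.8% and 98.2% of the tested genes with a known length. Once each sample's trend on transcript length and GC content was removed in the fit with the block, the differences were -0.29 ± 0.11 for TET1, -0.10 ± 0.06 for TET2 and -0.08 ± 0.05 for TET3, with adjusted p = 0.248, 0.454 and 0.457. ASXL2, whose transcript exceeds 98.6% of them in length, was at -1.09 ± 0.08 before and -0.91 ± 0.07 after that step. The part of transcript length in the TET differences was not tested beyond these values.

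**Figure D2:**
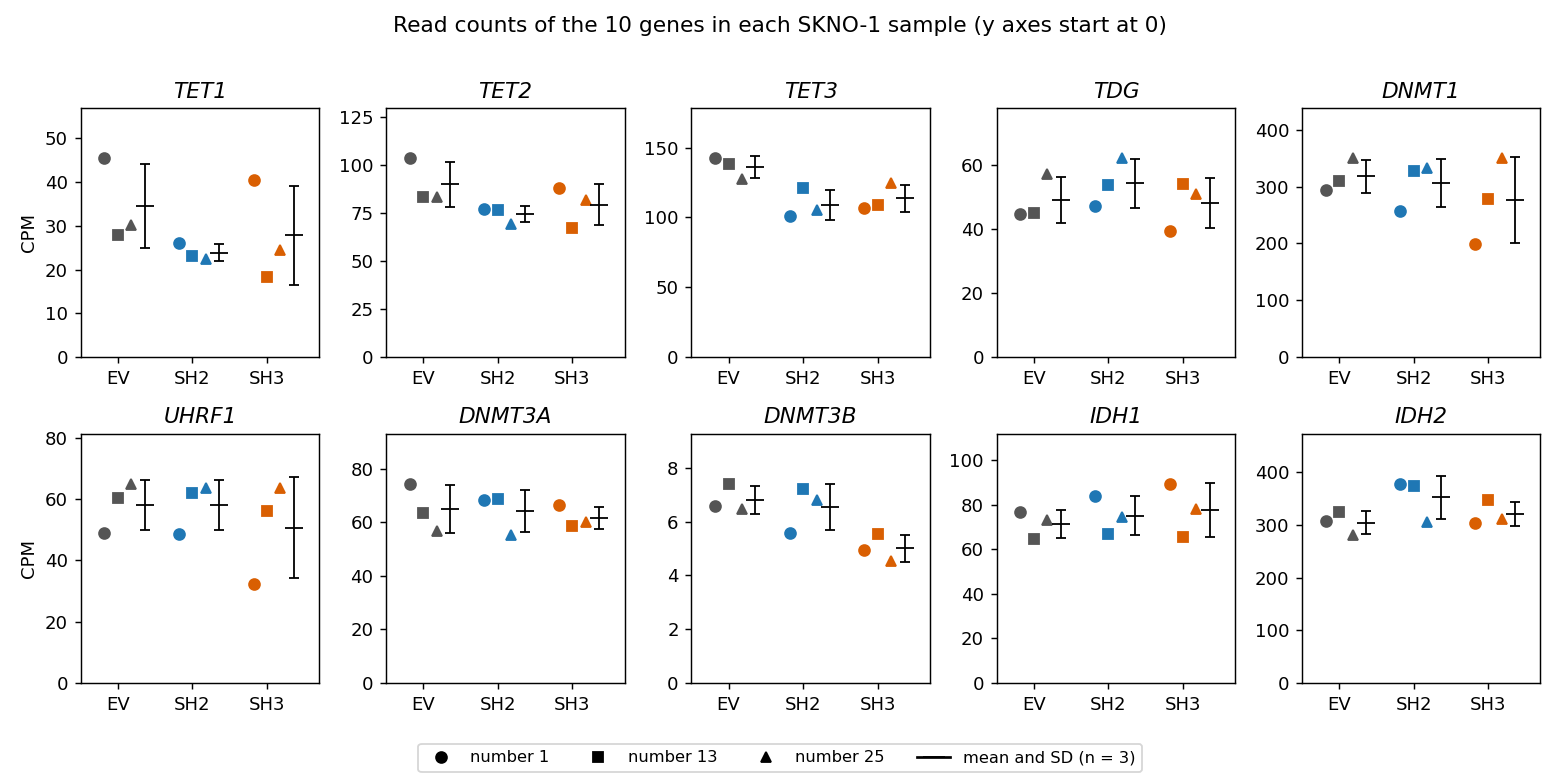
CPM of each gene in every sample (y axes start at 0), with the marker shape for the label number and the mean and SD of 3 samples beside each group. For TET3 the 6 shRNA samples, 101.1 to 124.9 CPM, sit below the EV samples, 127.6 to 142.5 CPM, and for UHRF1 the circles of number 1 sit lowest in every group.

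TET2 had a second RefSeq row, NM_017628. Its model has 3 exons, and in place of splicing at the end of exon 3 it reads on for 5420 bases, so it encodes a shorter protein that stops soon after this boundary and lacks the catalytic domain. The exon runs from 106155054 to 106158508 on chromosome 4 in the model with 11 exons and to 106163928 in the short model. The 30 bases across the boundary (GRCh37, chr4:106158494-106158523, plus strand) are shown because the rows part there. Capitals mark the first bases of the intron of the long model, which the short model keeps as exon.
TET2 end of exon 3: cttgcagatgtgtagGTaagtgccagaaat

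The short row held 35.63%, 33.95% and 41.43% as many counts as the long row in the EV samples numbered 1, 13 and 25, 25.53%, 31.35% and 29.88% in SH2, and 25.44%, 23.99% and 35.71% in SH3. All SH2 samples and 2 SH3 samples lay below the EV range, while the SH3 sample numbered 25 lay inside it. The log2 ratio of the rows was lower by 0.38 on average with both shRNAs (-0.38; two-sided exact permutation test over 84 splits, p = 0.0476, smallest possible p 0.0119). Over the 27 splits that respect the numbers, the exact p was 0.037, the smallest they can give. Leaving out 1 sample gave exact p values from 0.0357, without the SH3 sample numbered 25, to 0.214, without the EV sample numbered 25, and all 8 other than the first exceeded 0.05. As a row of its own, NM_017628 was at 33.2 ± 4.5 CPM in EV, 21.5 ± 2.3 in SH2 and 22.6 ± 6.6 in SH3 (SD, n = 3), and in edgeR with the block over 30546 rows its averaged log2 fold change was -0.59 ± 0.14 (adjusted p = 0.0653).

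The rows of TET2 are not separate measurements. The models share 3692 bases, 38.5% of the long model, and reads from these can be counted in both rows. Over the 9 samples the short row held 31.8% as many counts as the long row. Whether the short transcript itself was present was not tested. Whether the ratio moved with the short transcript or with the coverage of the first exons relative to the rest was not tested.

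**Figure D3:**
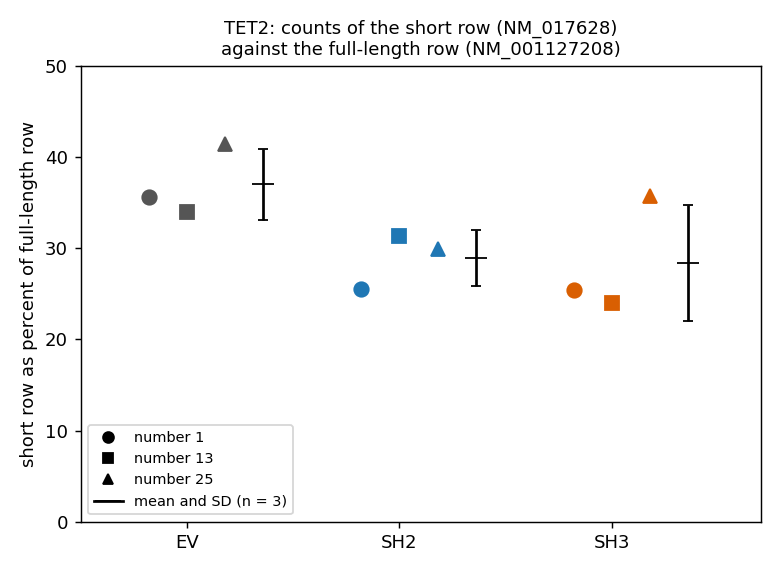
Counts of the short TET2 row as a percentage of the long row in each sample, with the mean and SD of 3 samples per group. EV lies between 33.95% and 41.43%, and of the shRNA samples only SH3 number 25, at 35.71%, reaches that range.

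TDG, the glycosylase that acts after the TET enzymes (NM_003211, chromosome 12, 104359600 to 104382652, plus strand), had 44.94, 45.04 and 57.32 CPM in EV, 47.15, 53.78 and 62.28 CPM in SH2, and 39.36, 54.28 and 51.15 CPM in SH3. The groups overlapped. SH2 lay above the EV sample of its number in every pair, and SH3 in 1 of 3. The log2 fold changes were 0.15 ± 0.16 for SH2 and -0.02 ± 0.16 for SH3 (edgeR without the block, adjusted p = 0.986 and 0.993), with 95% intervals from -0.21 to 0.50 and from -0.38 to 0.33. With the block, in edgeR over all RefSeq rows, they were 0.14 ± 0.09 and -0.03 ± 0.09 (adjusted p = 0.394 and 0.89).

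DNMT1, the maintenance methyltransferase (NM_001130823, chromosome 19, 10244018 to 10341962, minus strand), had 294.1, 309.3 and 350.0 CPM in EV, 257.7, 327.7 and 332.7 CPM in SH2, and 199.7, 278.9 and 350.0 CPM in SH3. The lowest sample of each group was the one numbered 1, and the groups overlapped. UHRF1, its guide to hemimethylated DNA (NM_001048201, chromosome 19, 4903092 to 4962165, plus strand), had 48.9, 60.21 and 64.99 CPM in EV, 48.72, 61.99 and 63.6 CPM in SH2, and 32.28, 56.26 and 63.53 CPM in SH3. Against the EV sample of its number, SH2 held 99.6%, 103% and 97.9% of UHRF1, whereas SH3 held 66.0% at number 1, 93.4% at 13 and 97.75% at 25. With both shRNAs averaged, DNMT1 differed by -0.13 ± 0.16 and UHRF1 by -0.10 ± 0.20 on the log2 scale (edgeR without the block, adjusted p = 0.963 and 0.979). The 95% intervals of that fit were -0.50 to 0.24 and -0.54 to 0.35. With the block, in edgeR over all RefSeq rows, the averaged values were -0.15 ± 0.09 and -0.12 ± 0.09 (adjusted p = 0.349 and 0.489). There SH2 gave -0.06 ± 0.10 and 0.001 ± 0.11, and SH3 gave -0.23 ± 0.10 and -0.23 ± 0.11 (edgeR, adjusted p = 0.235 and 0.26 for SH3).

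DNMT3A, a de novo methyltransferase (NM_175629, chromosome 2, 25450724 to 25565459, minus strand), lies 391.2 kb from ASXL2 on the same chromosome. It had 74.39, 63.58 and 56.82 CPM in EV, 68.44, 68.88 and 55.18 CPM in SH2, and 66.33, 58.64 and 59.96 CPM in SH3. The groups overlapped, and the highest value was that of the EV sample numbered 1. Its averaged log2 fold change was -0.05 ± 0.11 (edgeR without the block, adjusted p = 0.984, 95% interval -0.29 to 0.20). With the block, in edgeR over all RefSeq rows, it was -0.04 ± 0.07 (adjusted p = 0.75). In edgeR with the block and the length and GC trends removed, it was 0.13 ± 0.05 (adjusted p = 0.255). Of the 4 RefSeq rows of DNMT3A, NM_175630 held far fewer counts than the others, 3.53% of the top row in all. Its share of the top row was 3.59%, 3.75% and 4.99% in EV, 2.25%, 3.23% and 3.52% in SH2, and 2.31%, 3.90% and 4.74% in SH3, which rests on 45 to 97 counts a sample and overlapped between the groups.

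DNMT3B, the other de novo methyltransferase (NM_006892, chromosome 20, 31350191 to 31397165, plus strand), had the largest log2 difference of any member between the shRNAs. It stood at 6.57, 7.42 and 6.47 CPM in EV, at 5.59, 7.24 and 6.83 CPM in SH2, and at 4.94, 5.56 and 4.55 CPM in SH3. All SH3 samples lay below all EV samples, as for TET3 and for 5.28% of the genes tested, while SH2 overlapped EV. The highest SH3 value, 5.56 CPM, nearly met the lowest SH2 value, 5.59 CPM. SH3 held 73.5% ± 2.7 of the EV sample of the same number (SD, n = 3), which rests on 125 to 180 counts a sample in SH3 and 194 to 239 in EV. SH3 against EV gave a log2 fold change of -0.44 ± 0.16 (edgeR, adjusted p = 0.967, and 0.118 with the block). SH3 against SH2 gave -0.38 ± 0.16 (edgeR, adjusted p = 0.998, and 0.273 with the block). Neither passed.

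IDH1, the cytosolic isocitrate dehydrogenase (NM_005896, chromosome 2, 209100953 to 209130798, minus strand), had 76.57, 64.36 and 72.86 CPM in EV, 83.94, 66.82 and 74.48 CPM in SH2, and 89.34, 65.37 and 77.83 CPM in SH3. It lay above its EV sample in 6 of 6 pairs, by little, as 11.6% of the genes tested did. The shRNA samples held 102% to 117% of EV, and the averaged log2 fold change was 0.10 ± 0.12 (edgeR without the block, adjusted p = 0.956). With the block, in edgeR over all RefSeq rows, the averaged value was 0.094 ± 0.055 (adjusted p = 0.348). IDH2, the mitochondrial enzyme (NM_002168, chromosome 15, 90626277 to 90645709, minus strand), had 306.8, 325.5 and 281.0 CPM in EV, 378.3, 374.2 and 304.9 CPM in SH2, and 304.5, 346.6 and 310.8 CPM in SH3. SH2 lay above EV in each pair, and SH3 in 2 of 3. For SH2 the log2 fold change of IDH2 was 0.21 ± 0.11 (edgeR, adjusted p = 0.957, and 0.193 with the block), and without the SH3 sample numbered 1 in the fit with the block its adjusted p was 0.0382, where 11.2% of all genes and 4 members passed (IDH2 and the 3 TET genes).

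Across the 10 members, 6 had a log2 fold change below 0 for SH2, 8 for SH3 and 7 for both averaged, against 48.6%, 46.9% and 47% of all genes tested. The median member was at -0.04 for SH2, -0.19 for SH3 and -0.11 for both averaged, and the median of all genes was at 0.01 in each. SH2 and SH3 share the EV samples, so these counts are not independent of each other. Between SH3 and SH2, 0 of the 10 members passed in edgeR with or without the block (0.106% and 0% of all genes), and the widest 95% interval without the block was that of TET1, from -0.40 to 0.84 on the log2 scale.

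**Figure D4:**
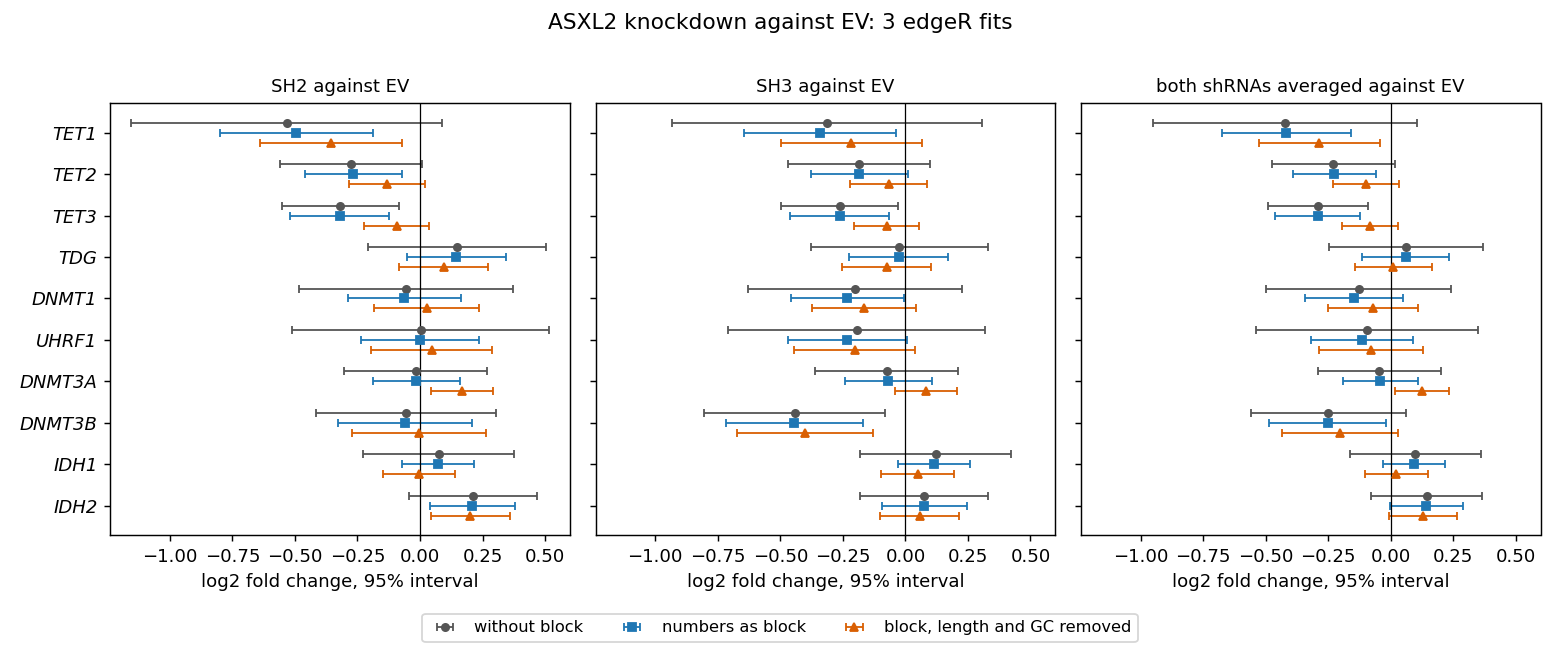
Log2 fold changes with 95% intervals for SH2, SH3 and both shRNAs averaged against EV, from edgeR without the block (circles), with the label number as a block (squares), and with the block after removal of length and GC trends (triangles). The averaged TET3 value moves from -0.29 to -0.08 when the trends are removed, while that of DNMT3B stays between -0.25 and -0.20.

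The samples also differed by their label numbers. In the fit of group and number, samples numbered 1 differed from those numbered 13 and 25 in 7 of the 10 members, but so did 46.3% of all genes tested, 24.1% higher and 22.2% lower. DESeq2 called the same number of members and 40.7% of all genes. TET1 was higher at number 1 by 0.60 ± 0.12 on the log2 scale (edgeR, adjusted p = 0.00275), IDH1 by 0.25 ± 0.06 (0.00547), TET2 by 0.21 ± 0.08 (0.0409) and DNMT3A by 0.21 ± 0.07 (0.0287). UHRF1 was lower at number 1 by 0.53 (-0.53 ± 0.09, adjusted p = 0.002), DNMT1 by 0.38 (-0.38 ± 0.09, adjusted p = 0.00633) and TDG by 0.30 (-0.30 ± 0.08, adjusted p = 0.0109). TET3, DNMT3B and IDH2 had adjusted p values of 0.532, 0.287 and 0.763.

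UHRF1 was the only member whose 3 samples numbered 1, 32.28 to 48.9 CPM, all lay below the other 6, 56.26 to 64.99 CPM, which 12.1% of the genes tested showed. For TET1 the samples numbered 1 spanned 26.15 to 45.43 CPM and the others 18.4 to 30.24 CPM, and the SH2 sample numbered 1 lay inside the range of the others. The call for TET2 was lost without any 1 of the EV samples, SH2 number 25, SH3 number 1 or SH3 number 13, and its difference was then 0.158 to 0.205 (edgeR, adjusted p from 0.0682 to 0.201). It was lost as well with all rows of a symbol summed (0.163, adjusted p = 0.171) and without a group term (0.219, adjusted p = 0.115). That for DNMT3A was lost without any 1 of the EV samples or SH2 number 25, with differences from 0.154 to 0.194 (adjusted p from 0.0634 to 0.164). The numbers 25 and 13 differed in 0 of the 10 members in edgeR and in 5.87% of all genes. DESeq2 called 0 members there as well, with 6.73% of all genes, and at an unadjusted p under 0.05 edgeR called 2 members, with 23.8% of all genes. Without the SH3 sample numbered 1, IDH1 (0.20, adjusted p = 0.0234) and IDH2 (-0.22, adjusted p = 0.0192) passed there, with 19.2% of all genes.

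**Figure D5:**
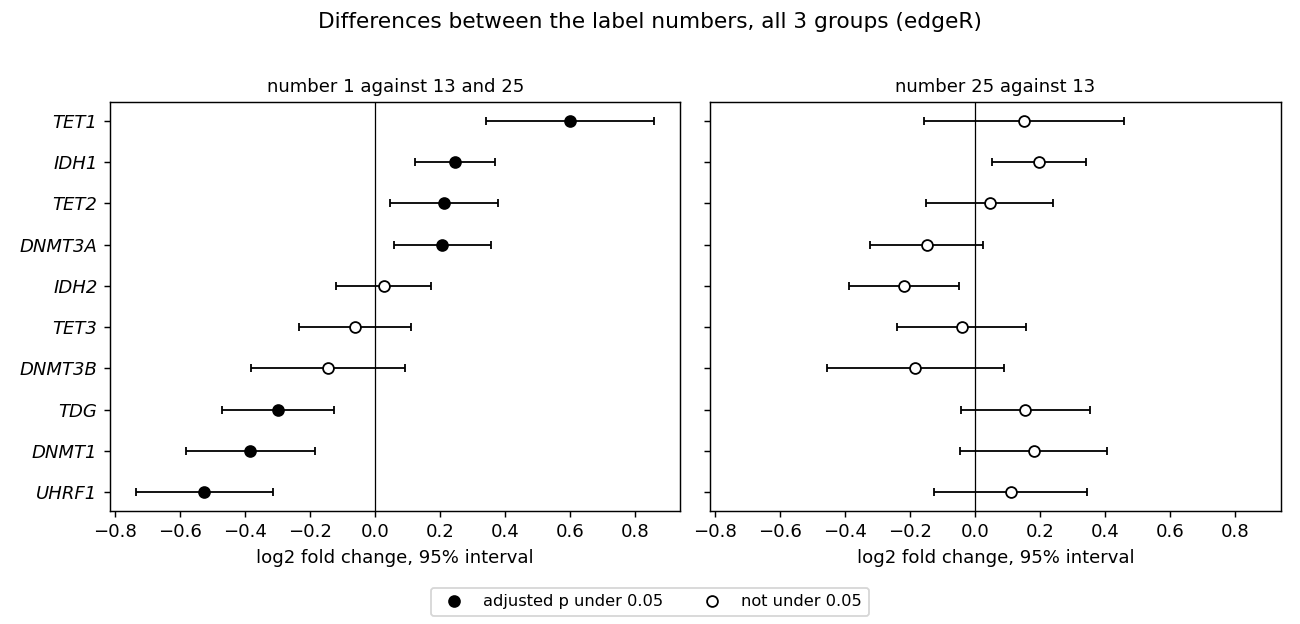
Log2 fold changes with 95% intervals between the label numbers over all groups, for number 1 against 13 and 25 (left) and for 25 against 13 (right), with filled points at an adjusted p under 0.05. On the left, TET1 at 0.60 is highest and UHRF1 at -0.53 lowest, and on the right 0 of the 10 points are filled.

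The sum of the proliferation markers differed by number, in a contrast where 46.3% of all genes tested passed. Summed over MKI67, TOP2A, CDK1, CCNB1, MCM2, MCM5 and RRM2, the samples numbered 1 held 1490 to 1830 CPM and the others 1870 to 2040 CPM. Of the 7 genes, 4 passed as lower at number 1 (edgeR, MCM5 by -0.42 ± 0.08, adjusted p = 0.00178, and MKI67 by -0.40 ± 0.11, adjusted p = 0.0128, the largest). TOP2A, CDK1 and MCM2 did not pass. B cell markers, some of which this leukaemia expresses, summed to 3.88 to 6.71 CPM at number 1 and to 1.91 to 2.88 CPM elsewhere, with CD22 (2.48 ± 0.46, adjusted p = 0.00233) and CD79A (0.43 ± 0.16, adjusted p = 0.0423) higher at number 1 in edgeR, and MS4A1 at 0 throughout. KIT, the receptor of stem cell factor, was the 1 AML blast marker to pass (edgeR, 0.36 ± 0.08, adjusted p = 0.0066). All these calls stand beside the 24.1% of all genes that passed as higher at number 1 and the 22.2% that passed as lower. Whether proliferation or cell composition takes part in the differences of UHRF1, DNMT1 or the other members was not tested. In bulk RNA, fewer expressing cells and less RNA per cell cannot be told apart.

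The promoters of UHRF1 and DNMT1, the members with the largest decrease at number 1, are shown because both hold a word of the E2F type, to which factors of the cell cycle bind. The words were looked up after the values were seen, and whether they take part in the differences was not tested. The words searched were TTTCCCGC, TTTGGCGC, TTTCGCGC and TTTGCCGC on both strands, in RefSeq windows from 250 bases before to 50 bases after each start (GRCh38.p14). Of the members, only DNMT1 in its 1 window and UHRF1 in 2 of 3 windows held a word. Counted by window and not by gene, 3.31% of the 35116 windows of all genes held one. A gene with several windows has more chances to hold a word, so this is not the share of genes that hold one. TDG, which was also lower at number 1 (-0.30), held 0 words in its 1 window. The 30 bases around each word were matched to chromosome 19 of GRCh37 at chr19:4909488-4909517 and chr19:4909985-4910014 (plus strand, UHRF1) and chr19:10305613-10305642 (minus strand, DNMT1). Capitals mark the word, read on the strand of the gene.
UHRF1 promoter stretch, first start: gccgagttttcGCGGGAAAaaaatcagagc
UHRF1 promoter stretch, second start: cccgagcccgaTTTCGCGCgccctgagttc
DNMT1 promoter stretch: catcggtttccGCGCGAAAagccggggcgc

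Other genes of the pathway were read from 6 lists. In edgeR none of their genes passed in a contrast of the groups, with or without the block. The lists held 11 tested partners of maintenance and de novo methylation, 10 readers of methylated CpG, 7 partners or recruiters of TET enzymes, 17 genes of base excision and repair, 22 of 2-oxoglutarate metabolism and 14 of the S-adenosylmethionine and folate cycles. For both shRNAs averaged their medians without the block were 0.01, -0.07, -0.11, 0.07, 0.08 and 0.02 on the log2 scale, beside 0.01 for all genes. At an unadjusted p under 0.05 the same contrast held 1, 1, 0, 0, 2 and 1 genes of these lists, in that order, beside 6.63% of all genes. DESeq2 called none of their genes without the block, and with it called HCFC1 for SH3 (adjusted p = 0.0355) and for both averaged (adjusted p = 0.0308), in either case lower.

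Between number 1 and the others, 6 of the 11 methylation partners passed, 1 higher and 5 lower. PCNA, the replication clamp (-0.27 ± 0.07, adjusted p = 0.0138), and CDCA7, which works with the remodeller HELLS (-0.27 ± 0.07, adjusted p = 0.0132), were the largest. Of the methyl-CpG readers 8 of 10 passed, 4 in each direction, led by MBD5 (0.71 ± 0.11, adjusted p = 0.00114) and ZBTB4 (0.45 ± 0.09, adjusted p = 0.00329). Of the TET partners 6 of 7 passed, 1 higher and 5 lower: OGT, the O-GlcNAc transferase that binds TET2 and TET3, was higher (0.65 ± 0.11, adjusted p = 0.00122), and HCFC1, which OGT modifies, was lower (-0.49 ± 0.09, adjusted p = 0.00216).

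In base excision and repair 8 of 17 genes passed, 5 higher and 3 lower. OGG1 was higher (0.51 ± 0.16, adjusted p = 0.0269) and UNG, the uracil glycosylase, lower (-0.46 ± 0.09, adjusted p = 0.00313). In 2-oxoglutarate metabolism 11 of 22 passed, 1 higher and 10 lower, with the NAD-dependent isocitrate dehydrogenase subunit IDH3A (-0.60 ± 0.09, adjusted p = 0.000694) and the transaminase GOT2 (-0.44 ± 0.08, adjusted p = 0.00196) first. In the S-adenosylmethionine and folate cycles 5 of 14 passed, 2 higher and 3 lower, and AHCYL2 (0.35 ± 0.07, adjusted p = 0.00325) was among those higher. These shares stand beside the 46.3% of all genes that passed.

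Over the 9 samples, log2 CPM of TET2 was most like that of BAZ2A (Pearson r = 0.983), GPATCH2L (0.974) and POGZ (0.974), and among the members like that of TET1 (0.934, at rank 37 of all genes). UHRF1 was most like RABL6 (0.995), MIR636 (0.992) and ZNF202 (0.991), and among the members like DNMT1 (0.96, at rank 190). These are descriptions over 9 points that share the numbers and library scaling. UHRF1 and TET1 ran in opposite directions (-0.614, at rank 10426), as did UHRF1 and IDH1 (-0.702, at rank 11184). Among the 14199 genes tested, many others thus had a more negative correlation with UHRF1.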

How the data were processed

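The deposited tables hold whole-number counts per RefSeq transcript (48104 rows per sample), which the authors left without normalization; the submitters' notes name hg19, STAR, featureCounts and DESeq2 without versions, while the study's methods name Cuffdiff, which needs reads. Isoform rows share reads, since all rows sum to 2.24 times the total of 1 row per gene, so the row with the highest total stood for each symbol. Counts were tested with edgeR 4.0.16 (R 4.3.3; TMM scaling; filterByExpr at its count setting of 10 and total setting of 15; quasi-likelihood test; Benjamini-Hochberg adjustment over all 14199 genes; threshold 0.05), in 1 fit of the 3 groups (6 residual degrees of freedom). Alternatives were the label number as a replicate block (4 residual degrees of freedom), DESeq2 1.42.0, size factors, no filter, summed rows, offsets from splines on length and GC content (13396 genes with both), and fits without single samples. The numbers pair the samples: deviations from the group means correlated at 0.398 to 0.731 (mean 0.598) in all 9 same-numbered pairs. SE is the log2 fold change over the root of its F statistic; intervals are 95%. CPM uses the TMM-scaled libraries, and 3 counts correspond to 0.0847 to 0.1082 CPM. The edgeR fits with and without the block were tried on simulated counts, for both shRNAs averaged only. Those counts held no difference between the numbers and less spread than the fit without the block found. DESeq2, the length and GC correction, the contrasts of the numbers and the fits of all rows were not simulated. Named genes were all members, every TET2 row, ASXL2, listed genes that passed between the groups, the 2 largest listed changes between the numbers per list, and the 3 genes most like TET2 and UHRF1; calls of DESeq2 for other genes and the promoter words were described after values were seen. A few genes that these rules name are not reported here. Members and lists were chosen with earlier results of these data known. The label text on RNA extraction describes sorted marrow cells and not this line; the line named in the labels was taken as the source. IDs in the tables come with symbols, and locations come from GENCODE on GRCh37. Protein sequences were not used here.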

Additional observations from a re-analysis of the deposited data

How the results depend on the processing

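In edgeR without the block, 0 genes and 0 members were called between the groups with other size factors, no filter, summed rows, only the groups compared, or without the samples numbered 1. For SH2, SH3, both averaged and SH3 against SH2, the genes called were 21, 26, 52 and 11 with DESeq2, 40, 59, 156 and 15 with the replicate block, 334, 412, 585 and 140 with DESeq2 and the block, 3, 44, 33 and 12 with the block and the length and GC correction, 40, 99, 158 and 10 with the block on only genes with a length, and 267, 341, 370 and 129 with the block without the samples numbered 1. In edgeR on all 9 samples the block changed the call of no member in these contrasts. DESeq2 with the block called 2 members for SH2 and 2 for both averaged, and the block without the samples numbered 1 called 1 for SH3 and 1 for both averaged. Leaving out 1 sample, with or without the block, gave 0 to 1604 genes and 0 to 4 members for SH2, 0 to 368 and 0 to 1 for SH3, 0 to 1755 and 0 to 3 for both averaged, and 0 to 257 and 0 between the shRNAs. The highest values came with the block without SH3 number 1, and the last without SH3 number 13. Between numbers 25 and 13, 304 genes were called without a group term, and 50 (without EV number 25) to 2750 genes (without SH3 number 1), with 0 to 2 members, without 1 sample. The TET2 row ratio ranged from -0.44 to -0.29 without 1 sample.

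The signs of some differences turned, none of them called in the contrast. With the block and the length and GC correction the values were 0.027 for DNMT1, 0.17 for DNMT3A and -0.0039 for IDH1 in SH2, 0.082 for DNMT3A in SH3 and 0.13 for DNMT3A in both averaged (log2). With the block on only genes with a length, UHRF1 in SH2 was at -0.00091. Without the samples numbered 1, and then with the block as well, DNMT1 was at 0.0052 and 0.0097, DNMT3A at 0.046 and 0.043 and DNMT3B at 0.022 and 0.022 in SH2, TDG at 0.042 and 0.053 in SH3, DNMT3A at 0.011 and 0.011 in both averaged, and TET1 at -0.087 and -0.099 between the shRNAs.

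Without 1 sample, SH2 gave -0.13 to 0.056 for DNMT1, -0.11 to 0.092 for DNMT3A, -0.15 to 0.045 for DNMT3B, -0.012 to 0.15 for IDH1 and -0.11 to 0.11 for UHRF1. SH3 gave -0.16 to 0.034 for DNMT3A, -0.39 to 0.042 for UHRF1 and -0.15 to 0.11 for TDG, and both averaged -0.13 to 0.063 for DNMT3A, -0.21 to 0.022 for UHRF1 and -0.040 to 0.19 for TDG. Between the shRNAs the ranges were -0.15 to 0.45 for TET1, -0.044 to 0.15 for TET3, -0.35 to 0.036 for DNMT1, -0.14 to 0.032 for DNMT3A, -0.071 to 0.16 for IDH1 and -0.39 to 0.040 for UHRF1. Number 1 against the others gave -0.044 to 0.090 for IDH2, and 25 against 13 gave -0.014 to 0.34 for TET1, -0.048 to 0.16 for TET2 and -0.14 to 0.058 for TET3. These causes were not tested. The fit of transcript rows with the block and the length and GC correction was not run. Alternatives that combine the block with a left-out sample or a length filter were added after the data were seen. With 1 cell line and 3 samples a group, errors cover the spread between these samples only, and DNMT3B and the DNMT3A row NM_175630 rest on the fewest counts.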

Other observations

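Between the samples numbered 25 and 13, where edgeR called no member, some other genes of the pathway passed. UHRF2, the relative of UHRF1, was at 65.0 to 70.0 CPM at number 25 and 53.0 to 57.6 CPM at number 13 (log2 difference 0.29 ± 0.06, edgeR adjusted p = 0.0266). In 2-oxoglutarate metabolism, OGDH, a subunit of the dehydrogenase that consumes 2-oxoglutarate, was higher at number 25 by 0.36 ± 0.07 (adjusted p = 0.0149). GADD45B, a stress-induced gene also linked to active demethylation, had 7.28 to 7.57 CPM at number 25 and 10.5 to 12.2 CPM at number 13 (-0.65 ± 0.12, adjusted p = 0.0125), and these ranges did not overlap.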
